A study of Mus musculus with 70 samples.

Results

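The F1 hybrids of the series are 9 of its 70 mice, taken as every mouse whose strain label is B6D2F1 (5 mice) or D2B6F1 (4 mice). They were compared with the 46 mice labelled with a BXD strain and kept on the same standard chow (CD). These 46 belong to 10 strains: BXD102 (5 mice), BXD40 (8), BXD48 (3), BXD48a (3), BXD65 (6), BXD65b (4), BXD73 (4), BXD73b (3), BXD79 (7) and BXD9 (3). BXD48a, BXD65b and BXD73b are sub-strains of the strains whose numbers they share. No mouse of either set had a high-fat diet, and no agent was given. B6D2F1 held 1 male, D2B6F1 held 1 male, BXD102 held 1 male, and the other 52 mice were female. The age in the labels, which is that of the first weighing, was 107 to 488 days in the F1 mice (median 147) and 30 to 262 days in the BXD mice (median 114). Each library came from the liver of 1 mouse, and the age at collection was used only in an alternative fit.

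BXD strains are recombinant inbreds: each carries, at any autosomal locus, 2 identical copies of either the C57BL/6J (B6) or the DBA/2J (D2) allele, in a mosaic that differs between strains. An F1 mouse has 1 B6 and 1 D2 copy at every autosomal locus, so all F1 mice have the same autosomal genotype. In the usual naming the mother's strain comes first, so B6D2F1 mice have a B6 mother and D2B6F1 mice a D2 mother. The reciprocal crosses therefore differ in which parent gave which allele, which matters at imprinted genes, and in the mitochondrial genome, which comes from the mother. In MBD-seq, a methyl-CpG binding domain protein pulls down DNA fragments with methylated CpGs, and the reads over a bin rise with the number of CpGs and the share of them that is methylated. All reads were aligned to the B6 reference genome, so a D2 copy that is less methylated and a D2 copy whose reads align less well or that is missing from D2 cannot be told apart in these values. Each library was made from whole liver, so a lower level in all cells and a loss in some cells cannot be told apart either.

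The comparison used the 354239 autosomal bins of 150 bp. Of these, 292755 hold no sequence variant that segregates in the BXD, and 61484 (17.4%) hold at least 1; both classes were analysed apart. Values are log2 RPKM (reads scaled by bin length and library size). The following bins carry the main results and are printed 5′ to 3′ on the plus strand from the RefSeq copy of GRCm38.p6, with each CpG in capitals. They are a bin on chromosome 7 that was lower in the F1 mice than in each BXD strain and holds no variant, a bin of the same kind in an intron of *Polr1a* with 3 variants, 2 bins in which the BXD strains fall into a high and a low group (an intron of *Zfp981* and an exon of *Flg*), a bin without a single read in 6 whole BXD strains, and 2 bins named for their difference between the reciprocal crosses, of which the one on chromosome 2 did not pass the test.
F1 lower, chr7:22820701-22820850: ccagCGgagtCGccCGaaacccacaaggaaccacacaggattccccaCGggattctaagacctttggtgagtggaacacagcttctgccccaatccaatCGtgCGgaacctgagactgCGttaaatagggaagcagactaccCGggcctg
F1 lower with variants, chr6:71968201-71968350: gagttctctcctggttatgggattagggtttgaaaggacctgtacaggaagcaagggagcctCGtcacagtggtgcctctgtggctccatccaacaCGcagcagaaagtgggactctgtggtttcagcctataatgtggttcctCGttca
high or low by BXD strain, chr4:146507401-146507550: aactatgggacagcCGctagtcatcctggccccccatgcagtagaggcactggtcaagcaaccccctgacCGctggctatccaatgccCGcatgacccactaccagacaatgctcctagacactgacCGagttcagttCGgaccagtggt
high or low by BXD strain with a variant, chr3:93288151-93288300: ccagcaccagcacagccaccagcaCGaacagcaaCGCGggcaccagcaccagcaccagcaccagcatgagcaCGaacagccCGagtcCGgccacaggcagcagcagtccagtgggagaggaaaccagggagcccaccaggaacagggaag
no reads in 6 BXD strains, chr4:122008651-122008800: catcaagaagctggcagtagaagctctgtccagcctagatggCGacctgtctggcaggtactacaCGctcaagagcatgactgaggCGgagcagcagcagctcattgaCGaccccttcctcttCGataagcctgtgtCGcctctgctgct
reciprocal crosses, chr1:24612601-24612750: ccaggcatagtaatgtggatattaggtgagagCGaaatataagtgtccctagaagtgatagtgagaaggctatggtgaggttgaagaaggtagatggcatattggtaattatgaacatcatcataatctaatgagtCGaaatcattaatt
reciprocal crosses, chr2:152686801-152686950: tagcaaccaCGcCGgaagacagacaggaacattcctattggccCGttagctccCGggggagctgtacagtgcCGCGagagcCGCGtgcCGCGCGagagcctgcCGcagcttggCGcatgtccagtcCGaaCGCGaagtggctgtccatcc

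Reads in bins numbered 14735250 to 25828399 in the F1 libraries and 11028723 to 22028738 in the BXD libraries. Between mice of the same cross, the squared difference per bin was 1.10 to 2.62 times that of counting noise (16 pairs). No pair of F1 libraries, and no pair within a BXD strain, agreed within counting noise. The promoters of the 8 hepatocyte markers listed for this work (*Alb*, *Apoa1* and others) hold no bin, and of 5 leukocyte markers only *Cd79a* has bins, at 3.95 log2 RPKM in both sets. The labelled tissue could therefore not be checked from these markers.

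Mean methylation over the bins without variants was slightly higher in the F1 mice than in any BXD strain. The 9 F1 mice ran from 3.80 to 3.85 log2 RPKM (median 3.82) and the 46 BXD mice from 3.73 to 3.80 (median 3.78). The means of B6D2F1 and D2B6F1 were 3.83 and 3.82, and the 10 BXD strain means were 3.75 to 3.79. The difference was 0.05 log2 RPKM (exact two-sided permutation test over 2 crosses and 10 strains, p = 0.0303, the smallest p that 66 assignments allow, and 0.0364 after Benjamini-Hochberg adjustment over the 6 tests of means, spread and 0-read bins). The same adjusted value holds for each p of 0.0303 in the spread and the 0-read bins. The test counts each sub-strain as a strain of its own and each cross as 1 unit, although both crosses share 1 autosomal genotype. With sub-strains merged into 7 lines there are 36 assignments, whose smallest p is 0.0556, so no p of 0.0303 given here would pass 0.05 on that count. The differences were then 0.05 in the mean and -0.22 in the SD without variants. In bins with variants the F1 mice ran from 3.67 to 3.79 (median 3.74) and the BXD mice from 3.59 to 3.77 (median 3.69), and here the sets overlapped. The difference was 0.04 (exact permutation p = 0.182), and it was 0.07 with p = 0.0303 in the same exact test once each mouse was centred on its own median. On the linear scale the mean RPKM of bins without variants was 14.8 in B6D2F1 and 14.7 in D2B6F1, against 14.6 to 14.8 in the BXD strains, a level that the scaling to library size largely fixes. Over bins with at least 1 read in every mouse the difference without variants was 0.01 (exact permutation p = 0.0606), but this limit by its construction removes low BXD values.

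The spread over bins separated the sets much further than the mean did. The SD of log2 RPKM over bins without variants was 0.441 to 0.553 in the F1 mice (median 0.478) and 0.628 to 0.795 in the BXD mice (median 0.695). With variants it was 0.704 to 0.817 in the F1 mice (median 0.742) and 0.858 to 1.06 in the BXD mice (median 0.943). No F1 mouse overlapped a BXD mouse in either class. The cross means were 0.474 (B6D2F1) and 0.493 (D2B6F1) without variants, and the difference from the BXD strains was -0.22. With variants the crosses were at 0.739 and 0.757, and the difference was -0.19 (exact permutation p = 0.0303 for each class). Over bins with reads in all 55 mice, the difference without variants was -0.03 (exact permutation p = 0.0606). That limit takes out the lowest BXD values, since nearly all bins at 0 reads in some mouse were at 0 in BXD mice, so a smaller difference follows from how it was set. It kept 338669 bins of both classes. Without variants, the mean, the SD and the 0-read bins thus draw largely on the same low BXD values and are not independent results.

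Bins at 0 reads were nearly absent from the F1 libraries. Without variants, the 5 B6D2F1 mice had 3, 10, 1, 5 and 18 such bins, and the 4 D2B6F1 mice had 2, 2, 20 and 7. The 46 BXD mice had 1472 to 3526 (median 2241.5). With variants, the B6D2F1 mice had 4, 11, 0, 4 and 11 and the D2B6F1 mice 4, 4, 29 and 14, against 243 to 709 (median 389.5) in the BXD mice. The groups did not come near each other, with a difference of -2.57 in log10(number + 1) without variants and -1.74 with them (exact permutation p = 0.0303 for each). With every library thinned to the smallest one, the F1 mice had 3 to 50 and 2 to 78 such bins and the BXD mice 2197 to 4307 and 335 to 929. Over all BXD mice, 12668 bins without variants were at 0 reads in at least 1 mouse, and 12632 of these had reads in all 9 F1 mice. With variants these numbers were 2888 and 2848. No bin was at 0 in all 9 F1 mice. The authors kept only bins above a set read count in at least 2 libraries, so each bin had reads in some mice. An F1 mouse has both parental copies at every autosomal locus, so few F1 bins at 0 reads follow in part from this choice. The p-values above do not allow for it.

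**Figure D1:**
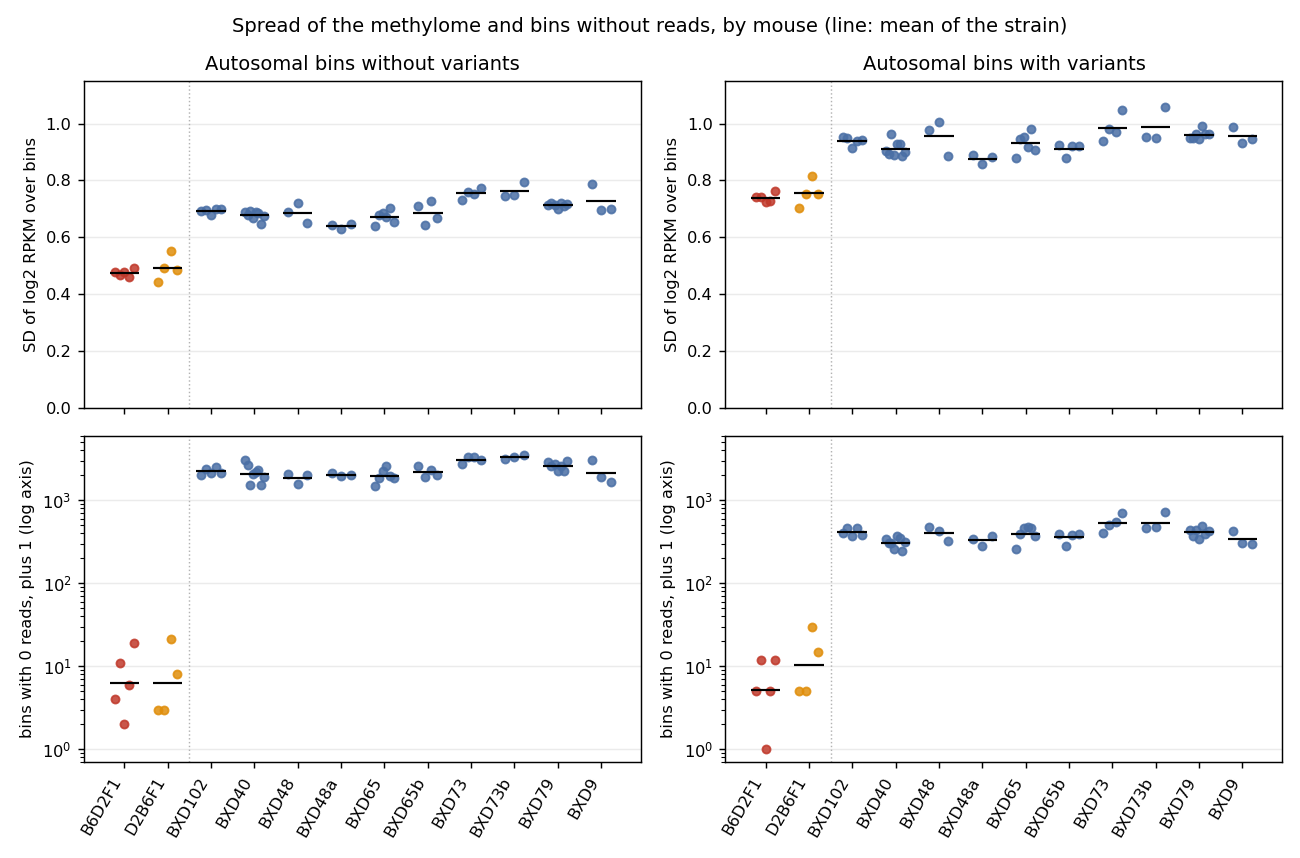
SD of log2 RPKM over bins (upper row) and number of bins with 0 reads plus 1 on a log axis (lower row), one point per mouse and a line at the mean of each cross or strain (of the logarithm in the lower row), for bins without and with variants. The F1 mice lie below all BXD mice in each panel, at 0.441 to 0.553 against 0.628 to 0.795 for the SD without variants.

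The difference was larger in repeats, in intergenic bins and in bins with many CpGs, each split made apart from the others. Bins without variants that were mostly soft-masked as repeats in the genome averaged 3.79 log2 RPKM in both crosses and 3.54 to 3.68 in the BXD strains, a difference of 0.18. Bins with no masked base averaged 3.88 and 3.87 in the crosses and 3.85 to 3.92 in the strains. By annotation the difference was 0.11 in intergenic bins, 0.03 in promoters, 0.02 in introns and under 0.01 in exons. Bins with 1 to 3 CpGs differed by 0.01, those with 7 to 9 by 0.12 and those with 10 or more by 0.21. The mostly masked bins also held most of the BXD bins at 0 reads, a mean of 1494 to 2567 per strain against 2.6 in B6D2F1 and 2.25 in D2B6F1. Among bins with variants, the difference was 0.03 with 1 variant and 0.09 with 5 or more. These splits are descriptions and were not tested.

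The F1 distribution was narrower at its lower end. The 1st percentile of cross means without variants was 2.79 log2 RPKM in both crosses and -0.08 to 0.37 in the BXD strain means. By the 25th percentile the sets were close, at 3.58 and 3.54 against 3.56 to 3.63, and the medians were 3.81 and 3.79 against 3.80 to 3.86. With variants the 1st percentile was 2.62 and 2.55 against 0.13 to 0.73, while the F1 medians, 3.70 and 3.68, lay below the range of the strains, 3.74 to 3.81.

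Between mice, the F1 hybrids were about as variable as inbred mice of 1 strain. The median SD of a bin between the 9 F1 mice was 0.245 log2 RPKM without variants and 0.253 with variants. Pooled within BXD strains it was 0.265 and 0.279, and over all 46 BXD mice, whose genotypes differ, 0.272 and 0.331. The F1 value was below the within-strain value by 0.02 in the first class and 0.03 in the second. Across the 10 strains, the SD of their median SDs was 0.018 in each class. Single strains ranged from 0.211 (BXD9) to 0.273 (BXD65b) without variants, and B6D2F1 (0.232) and D2B6F1 (0.227) lay inside this range. These values have no test.

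The F1 hybrids sat between the groups where the BXD strains were split into a high and a low group. Two-state bins were defined from the 10 BXD strain means alone: the largest gap between neighbouring strains was at least 1 log2 RPKM and wider than the range on either side, with at least 2 strains on each side. There were 15830 such bins without variants (5.41%) and 6769 with variants (11.0%). The median RPKM of the low strains, the F1 mice and the high strains was 0.775, 8.54 and 14.9 without variants, and 2.80, 8.61 and 14.3 with variants. Position was then measured on the linear scale from 0 (mean of the low strains) to 1 (mean of the high strains), with 0.25 to 0.75 called intermediate. The median position of the F1 mean over bins was 0.534 without variants (0.429 to 0.665 from the 5th to the 95th percentile) and 0.507 with variants (0.358 to 0.660). For a BXD mouse the states were taken from the strains of other lines.

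An F1 mouse was intermediate in 80.8 to 90.3% of the bins without variants (median 89.4%), and a BXD mouse in 3.66 to 25.3% (median 6.91%). With variants the shares were 73.9 to 87.2% (median 82.7%) and 7.22 to 18.9% (median 9.97%). Means were 88.4% in B6D2F1 and 87.2% in D2B6F1 without variants, and 83.5% and 80.9% with variants. The F1 share exceeded that of the strains by 79.4 percentage points without and 70.9 with variants (exact permutation p = 0.0303 for each class, in which no F1 mouse overlapped a BXD mouse). All 9 F1 mice were intermediate in 6850 bins without variants (43.3%) and in 1909 with variants (28.2%). On the log2 scale, where 1 copy of 2 lies close to the high end, the differences were 33.97 and 48.3 points (exact permutation p = 0.0303 each).

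**Figure D2:**
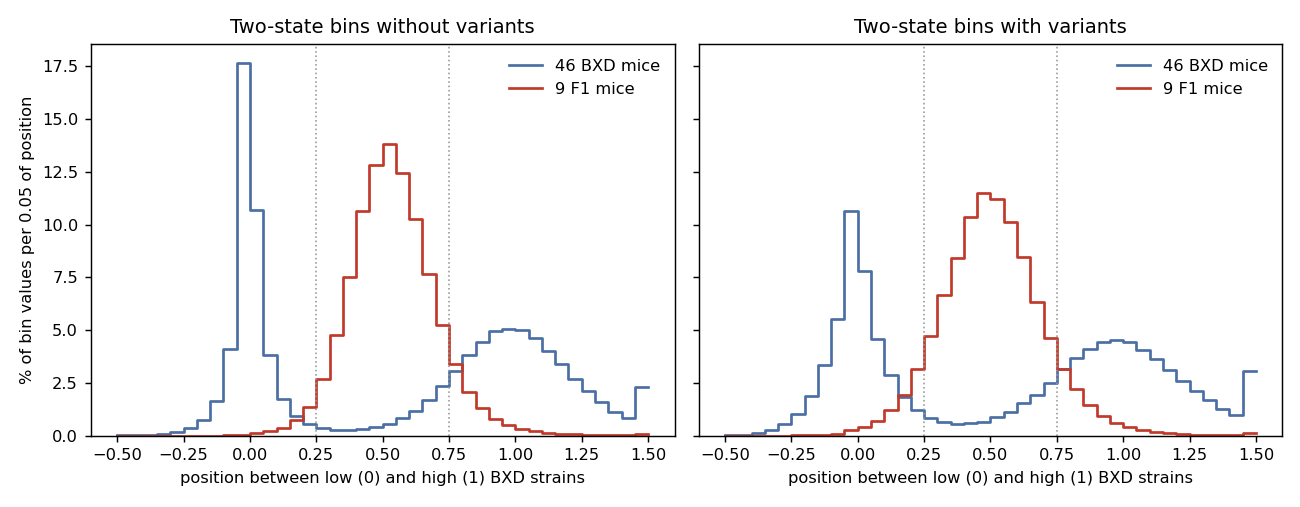
Position of single mice in two-state bins between the low BXD strains (0) and the high ones (1), as percent of bin values per 0.05 of position, with dotted lines at 0.25 and 0.75 and values beyond either end counted in the outermost step. The F1 curve has 1 peak near 0.5 in both classes. The BXD mice have peaks near 0 and 1, with the lowest step between these peaks at 0.35 to 0.40.

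Two-state bins lay mostly in repeats and outside genes: 73.7% of their bases were soft-masked, against 31.9% over all autosomal bins, 68.0% were intergenic (38.9% of all bins) and 3.46% exonic (26.0%). The F1 position depended little on what the bin was. Its median was 0.535 in promoters, 0.533 in exons, 0.533 in introns and 0.535 in intergenic bins without variants. By chromosome it ran from 0.515 to 0.557, and by the number of low strains, from 2 to 8, it ran from 0.526 to 0.539 without variants. It was 0.511 in bins with 1 to 3 CpGs and 0.555 in those with 10 or more. With 1 variant it was 0.519 and with 5 or more 0.496. Between the crosses, the share of intermediate bins did not differ beyond the spread of mice (exact permutation p = 0.635 without and 0.381 with variants).

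Some of the named bins show this in reads. In the intron of *Zfp981* (chr4:146507401-146507550, a zinc finger gene), 7 strains were at 36.6 to 40.9 RPKM and BXD102, BXD73 and BXD73b at 0.124 to 0.271. The B6D2F1 mice were at 19.8, 20.02, 18.3, 21.4 and 15.5 RPKM and the D2B6F1 mice at 21.6, 22.04, 21.6 and 28.4. All F1 mice lay between the groups, at positions of 0.391 to 0.720. In the exon of *Flg* (chr3:93288151-93288300), which encodes the skin barrier protein filaggrin and holds 1 variant here, BXD102, BXD48 and BXD48a were at 0.119 to 0.356 RPKM and the other 7 strains at 30.1 to 32.1. The B6D2F1 mice had 19.4, 16.5, 13.4, 16.8 and 15.1 RPKM and the D2B6F1 mice 14.7, 19.8, 22.5 and 23.6, again between the groups. The widest gap without variants was next to *AY761185* (chr8:20946301-20946450), where the low strains averaged 1.06 RPKM, the high strains 145.3 and the F1 mice 81.7 ± 6.56 (SD, n = 9). Near *Ccr1*, a chemokine receptor gene, the widest gap with variants (chr9:123925501-123925650) was less regular. The low strains averaged 1.11 RPKM and the high strains 232 (151.0 in BXD79 to 308.3 in BXD40). All 5 B6D2F1 mice were intermediate, at positions of 0.5002 to 0.625, while the D2B6F1 mice were at 0.611, 0.814, 0.780 and 1.06, so that 3 of 4 were above 0.75.

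A small number of two-state bins departed from the middle. All 9 F1 mice were above 0.75 in 49 bins without and 32 with variants, which form 45 runs, 9 of them on chromosome 14. They included 2 adjacent bins near *Gm16630* (chr6:48235351-48235650), at positions of 0.984 and 1.03, and 8 adjacent bins in an intron of *Drg1* near *Sfi1* (chr11:3192751-3193950), at 0.964 to 1.14. All 9 mice were below 0.25 in 1 bin without and 2 with variants. On chromosome 10, 40 two-state bins in chr10:3109501-3117000 had a mean position of 0.234 as median (0.164 to 0.291), and 25 of them were under 0.25. There the median RPKM was 10.2 in B6D2F1 and 11.0 in D2B6F1, against 64.3 in BXD40, 43.7 in BXD9, 19.5 in BXD102 and 0.139 to 1.85 in the other 7 strains. The F1 level was thus below each of the 3 high strains, which also differed among themselves. These runs were picked after their values were seen.

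Bins without a single read in a whole BXD strain mostly had reads in the F1 mice. There were 3816 such bins without and 602 with variants, and 3811 and 595 of them had reads in all 9 F1 mice. The authors kept only bins with reads in some libraries, and an F1 mouse has both parental copies. Reads in the F1 mice therefore follow largely from the choice of bins. These bins held 57.3% and 49.6% of all 0-read values of the BXD mice. Against the mean of the strains that had any reads, the F1 level was 0.74 ± 0.033 log2 RPKM higher without and 0.60 ± 0.047 higher with variants (SD over 9 mice of the median over bins), since strains with very few reads count as having them. This value rests on the prior count and on depth: it was 1.26 and 1.04 with a prior count of 0.5, 0.42 and 0.32 with one of 5, and 0.43 and 0.30 after thinning. Against only the strains at 2 log2 RPKM or more, a reference chosen after the data were seen, the F1 level was lower, by -0.84 ± 0.041 and -0.78 ± 0.039. In RPKM the median ratio of the F1 mean to these strains was 0.528 (0.435 to 0.639 from the 5th to the 95th percentile) and 0.543 (0.417 to 0.842). Of these bins 3440 and 531 were also two-state bins, so both results rest largely on the same bins.

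The highest F1 level in such a bin was on chromosome 4 (chr4:122008651-122008800, intergenic), with 53 to 90 reads per F1 mouse. The B6D2F1 mice were at 23.5, 24.3, 21.5, 22.2 and 29.6 RPKM and the D2B6F1 mice at 21.2, 26.2, 25.9 and 21.9. BXD102, BXD48, BXD73, BXD73b, BXD79 and BXD9 had 0 reads in every mouse, BXD40, BXD65 and BXD65b were at 0.0764 to 0.321, and BXD48a alone was high, at 36.0 RPKM. BXD48, of which BXD48a is a sub-strain, was among those at 0. Near *Gm8138* (chr14:43406851-43407000, 1 variant) the F1 mice were at 20.51 ± 2.94 RPKM (SD, n = 9), BXD102 at 44.0 and the other 9 strains at 0 to 0.356.

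Bin by bin, with the 2 crosses against the 10 strains in limma, 612 bins (0.173% of 354239) differed at an adjusted p (Benjamini-Hochberg) under 0.05. In 600 (0.169%) the F1 crosses were lower, 428 without and 172 with variants, and in 12 (0.00339%) they were higher. At an unadjusted p under 0.05 there were 21014 bins (5.93%). The median difference in the 600 bins was -0.81 log2 RPKM (-1.43 to -0.39), with medians of 8.28 RPKM in the F1 and 14.7 in the BXD mice and a median ratio of 0.552. Both crosses lay below each of the 10 strains in all 600, as they did in 6452 of all 354239 bins. The calls were made on the same 12 means, so this separation adds no support to them. The median SD of the BXD strains was 0.120 log2 RPKM in these bins and 0.147 over all bins. The fit favours bins in which the strains agree. None of the 600 was a two-state bin, which a fit that counts the spread of the strains could scarcely call. Without B6D2F1 there were 220 lower bins and without D2B6F1 206; a lone cross was then assumed to vary as the strains do.

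These bins clustered on few chromosomes: 321 were on chromosome 7, 186 on chromosome 10, 61 on chromosome 6 and 12 on chromosome 19. When lower bins within 3 Mb of each other were joined, a rule set after the positions were seen, 6 stretches with at least 10 of them held 574 (95.7%) but 1.40% of all bins. Most lay in chr7:13231651-24386400, with 320 of 1959 bins (16.3%), followed by chr10:81737251-94348350 with 181 of 2149 (8.42%). The others were chr6:52545301-55551900 (29 of 363), chr6:71124601-72540600 (17 of 173), chr6:64161451-64661100 (15 of 37, the highest share at 40.5%) and chr19:24785251-26446800 (12 of 294). None of the 4975 bins in these stretches was a two-state bin, although 6.38% of all bins were. The 3 Mb on either side of the chromosome 7 stretch (1501 bins) held no two-state bin either. Of 2394 windows of 1 Mb with at least 20 bins, 903 held no two-state bin. These 903 held 37.1% of the bins and 593 of the 600 lower ones.

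**Figure D3:**
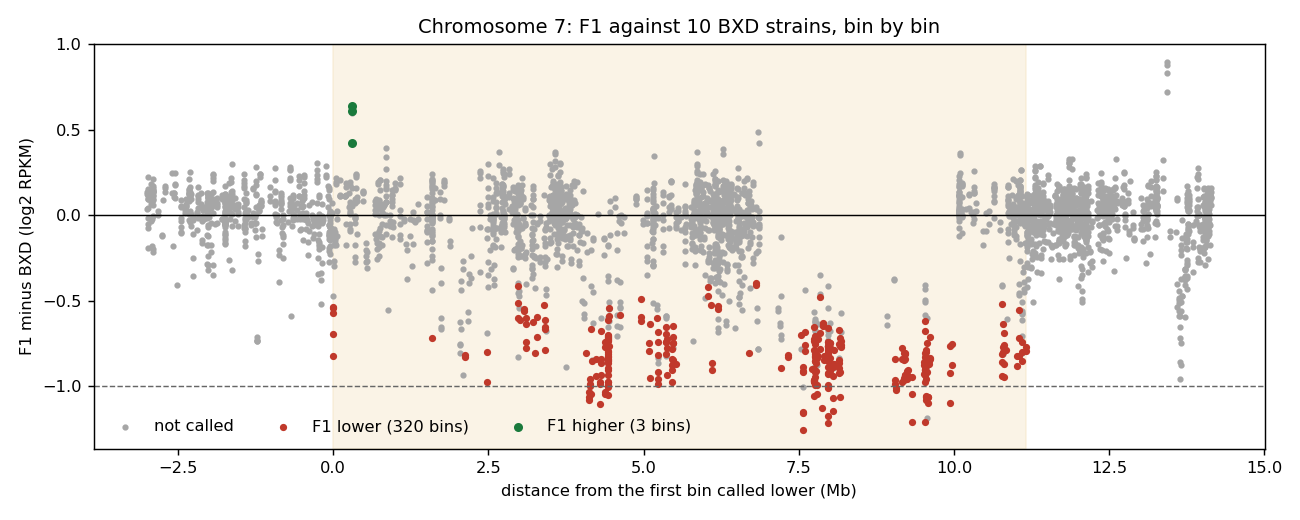
F1 minus BXD in log2 RPKM for each bin of the shaded chromosome 7 stretch and 3 Mb on either side, by distance from the first bin called lower. The dashed line marks -1, a ratio of 1 to 2, and 320 bins called lower (red) and 3 called higher (green) stand apart from a band of uncalled bins around 0.

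Within the chromosome 7 stretch the 5 lower bins with the smallest p and no variants were 4 intergenic bins and 1 in an intron of *Gm32772*. The genes nearest to the intergenic ones, at 9428 to 22830 bp, were *Vmn1r157*, *Vmn1r159* (for 2 bins) and *Vmn1r126*, which encode type 1 vomeronasal receptors. At chr7:22771051-22771200 the B6D2F1 mice were at 11.2, 8.24, 10.2, 12.3 and 11.3 RPKM and the D2B6F1 mice at 9.94, 14.9, 9.14 and 14.7. The 10 strains were at 24.98 to 29.5 RPKM, so no F1 value came near a strain mean, and on the log2 scale the highest F1 mouse (3.97) lay below the lowest of 46 BXD mice (4.42). The difference was -1.21 ± 0.065 (SE, limma, adjusted p = 2.25e-05). At chr7:22820701-22820850, whose 8 CpGs are printed above and which is wholly soft-masked, the difference was -1.10 ± 0.067 (limma adjusted p = 3.29e-05), with 30 to 58 reads in an F1 mouse. The other 3 differed by -0.87 to -1.15. With variants, the largest difference among the 5 named bins was in the *Polr1a* intron (chr6:71968201-71968350, 3 variants). *Polr1a* encodes the largest subunit of RNA polymerase I. The B6D2F1 mice had 4.10, 7.85, 7.31, 5.67 and 5.18 RPKM there, the D2B6F1 mice 5.14, 4.11, 6.39 and 3.42, and the BXD mean was 15.7, a difference of -1.42 ± 0.13 (SE, limma adjusted p = 2.53e-04). All F1 mice were below all BXD mice in this bin too. The remaining named bins with variants were near *Gm25068*, *Vmn1r183* and *Vmn1r115* on chromosome 7 and in an intron of *Tmcc3* on chromosome 10, at -0.63 to -1.05.

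**Figure D4:**
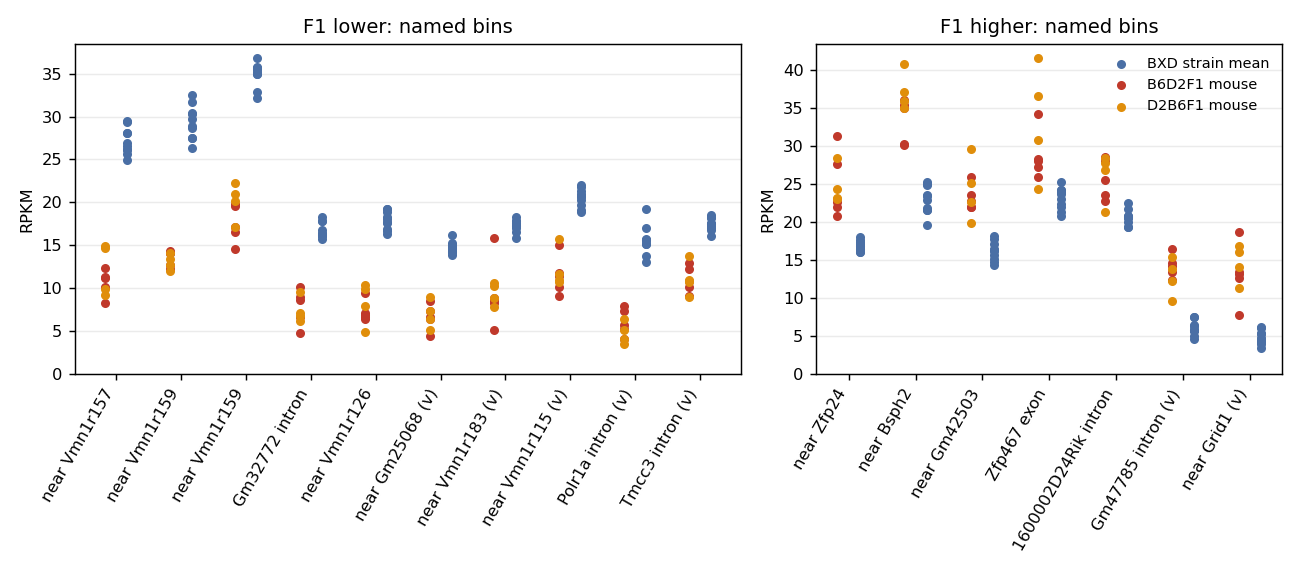
RPKM of the 9 F1 mice (red and orange) and of the 10 BXD strain means (blue) in the named bins called lower (left) and higher (right) in the F1 crosses, where (v) marks bins with variants. In the first bin the F1 mice lie at 8.24 to 14.9 RPKM and the strains at 24.98 to 29.5.

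The 12 higher bins formed 7 runs. A run of 4 lay near *Zfp24* on chromosome 18, with differences of 0.45 to 0.59, and 3 adjacent ones lay in the chromosome 7 stretch near *Bsph2*. At chr7:13532701-13532850 the crosses averaged 5.09 and 5.24 log2 RPKM and the strains 4.34 to 4.69, a difference of 0.61 ± 0.084 (SE, limma adjusted p = 0.00567), and all 9 F1 mice were above all BXD mice. One lay in an exon of the zinc finger gene *Zfp467* (chr6:48438901-48439050), at 4.87 and 5.06 against 4.42 to 4.66. The largest differences were near *Grid1* (chr14:34806451-34806600, 1 variant), where the F1 mice had 7.72 to 18.6 RPKM and the BXD mean was 4.63, and in an intron of *Gm47785* (chr9:33918751-33918900, 1 variant), with 13.5 against 5.96 RPKM. The number of higher bins was not stable. It was 49 without BXD102, 27 without BXD48a, 20 without BXD40, 5 without B6D2F1 and 1 without D2B6F1. It was 36 with sub-strains merged, 20 without males and 5 with age at collection as covariate. With strain as a random block over mice there were 655 higher and 944 lower bins.

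Complete separation of the mice was rarer. All 9 F1 mice were above all 46 BXD mice in 16 bins (0.00452%), 13 without and 3 with variants, and below them in 91 bins (0.0257%), 84 and 7. These counts moved with depth and with single crosses or strains. Thinned to the smallest library, 7 bins without variants were above and 39 below, and with variants 1 was below. Without variants, the bins above became 422 without BXD102, 138 without BXD48a, 67 without BXD40 and 30 without B6D2F1, and the bins below became 153 without D2B6F1, 142 without B6D2F1 and 128 without BXD40. With variants, the bins above became 69 without BXD102, 39 without BXD48a and 11 without BXD40. The bins below with variants became 29 without B6D2F1, 26 without D2B6F1, 18 without BXD40, 17 without BXD79, 13 without BXD102 and 13 without D2B6F1 replicate 1.

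The 4 gene lists described here were chosen by gene function or name, with bins in the gene or within 5 kb of it. Among 40 imprinted genes, in which 1 parental copy is methylated, 39 had 720 bins, of which none was called F1 higher or lower and 51 (7.08%) had an unadjusted p under 0.05. Cytochrome P450 genes (63 of 101 with 350 bins), which encode enzymes of drug and steroid metabolism in the liver, had 0 calls and 30 (8.57%) at an unadjusted p under 0.05. Genes of the growth hormone and insulin-like growth factor axis (21 of 23 with 431 bins) had 0 calls and 12 (2.78%). Over all bins the unadjusted share was 5.93%. Genes named *Zfp* with a number (279 of 359 with 3443 bins), most of which encode zinc finger proteins that bind DNA, had 1 higher bin, in *Zfp467*, and 5 lower ones. The lower ones were 2 in *Zfp108*, 1 in *Zfp93* and 2 in *Zfp61*, all between chr7:24252751 and chr7:24288450 at the end of the chromosome 7 stretch, with differences of -0.55 to -0.88. Called bins made up 0.174% of this list and 0.173% of all bins. The median F1 minus BXD difference was 0.05 for the imprinted list, 0.01 for cytochrome P450, -0.004 for the growth axis and 0.03 for *Zfp* genes, against 0.02 over all bins.

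Of the 720 bins near imprinted genes 4 (0.556%) were two-state bins, against 6% for cytochrome P450, 1.86% for the growth axis, 6.10% for *Zfp* genes and 6.38% of all bins. These shares were not tested, and two-state bins lay mostly outside genes. The F1 mean was intermediate in all 4 of the imprinted list, in all 8 of the growth axis, and in 95.2% and 99.05% of those of cytochrome P450 and *Zfp* genes, against 97.8% of all two-state bins. Taking the bin with most CpGs of each imprinted gene (34 distinct bins for 39 genes), F1 minus BXD ran from -0.16 (*Peg13*) to 0.39 (*Peg12*), with a median of 0.15 log2 RPKM, and none was called. All autosomal bins without variants that hold 10 or more CpGs had a mean difference of 0.21. At *H19*, a noncoding RNA gene whose control region is methylated on the paternal copy, the crosses were at 3.54 ± 0.14 and 3.47 ± 0.19 (SD, n = 5 and 4) and the BXD mean was 3.52. At *Snrpn*, methylated on the maternal copy, they were at 3.57 ± 0.18 and 3.27 ± 0.26, against 3.38.

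The reciprocal crosses did not differ in the measures over all bins beyond the spread of mice. Mean log2 RPKM was 3.83 ± 0.0081 in B6D2F1 and 3.82 ± 0.020 in D2B6F1 without variants (SD, n = 5 and 4, exact permutation p = 0.460). With variants it was 3.75 ± 0.013 and 3.73 ± 0.050 (SD, exact permutation p = 0.508). For the SD over bins and the number of 0-read bins, the exact permutation p was 0.302 to 1 (over the 6 tests with the means, every Benjamini-Hochberg adjusted p was 0.610 or more). D2B6F1 replicate 1, the male, had the highest mean (3.85 and 3.79) and the lowest SD (0.441 and 0.704) of the 9 mice in both classes. The male of B6D2F1 (replicate 5) also had the highest mean of its cross, 3.84 without and 3.76 with variants, but the highest SD of it (0.491 and 0.761). The male of BXD102 had the highest mean of its strain in both classes, 3.797 and 3.72. Without D2B6F1 replicate 1, the mean of B6D2F1 was higher by 0.02 and 0.04 (exact permutation p = 0.0357 for each, not adjusted).

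Per bin, 4 of 354239 bins (0.00113%) differed between the crosses in limma at an adjusted p under 0.05. All 4 were lower in B6D2F1 and lay close together on chromosome 1 (within chr1:24612601-24613350), outside genes and 25 kb from *Col19a1*, a collagen gene. The first ended at 24612750, and the other 3 were adjacent from 24612901 on. In the first of them, printed above, the B6D2F1 mice had 0, 0, 1, 0 and 1 reads and the D2B6F1 mice 34, 114, 58 and 41. The difference was -4.43 ± 0.42 log2 RPKM (SE, limma adjusted p = 1.20e-07). In the other 3 bins B6D2F1 mice had 0 to 6 reads and D2B6F1 mice 18 to 131, with differences of -3.78, -3.52 and -3.04. No mouse of 1 cross overlapped one of the other. BXD9 averaged 2.01 to 2.60 log2 RPKM in these bins, BXD40 0.62 to 2.15 and BXD79 0.41 to 2.09, and the other 7 strains were at or near the lowest value.

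These nuclear bins carry mitochondrial sequence. The 4 matched the minus strand of the mitochondrial genome of the same assembly in 150, 150, 149 and 150 of 150 bases, within positions 9228 to 9976. The 4 mitochondrial bins that overlap this stretch moved the opposite way. Their mean was 4.75, 6.38, 29.4, 14.97 and 4.0 RPKM in the B6D2F1 mice and 0.514, 0.187, 0.152 and 0 RPKM in the D2B6F1 mice. The crosses did not overlap, and the 46 BXD mice, at 1.39 to 25.1 RPKM, lay above all 4 D2B6F1 mice. Over all 75 mitochondrial bins the D2B6F1 mice were not low, at 19.1, 80.3, 36.7 and 21.0 RPKM against 12.2, 11.2, 55.7, 25.3 and 6.41 in B6D2F1. Whether the reads on chromosome 1 came from nuclear or mitochondrial DNA cannot be told apart from these values.

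With D2B6F1 replicate 1 left out, 410 bins were called higher and 105 lower in B6D2F1, the 4 above among them, and without both males 265 and 111. Removing any other F1 mouse left 0 or 1 higher and 3 to 5 lower bins. Without the other F1 male (B6D2F1 replicate 5) there were 0 and 4. With 1 male in each cross, sex and the single library cannot be told apart. At an unadjusted p under 0.05 there were 18979 bins (5.36%) over all 9 mice. EdgeR's quasi-likelihood test on the recovered reads called 4 bins as well. A limit to bins with reads in every F1 mouse removes the 4 bins themselves, since each has 0 reads in at least 1 B6D2F1 mouse, and does not test them.

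Of the 5 bins named for the smallest p among those higher in B6D2F1, none of which passed the threshold, 2 lay at imprinted genes. In the promoter of *Mcts2*, a retrogene inside *H13* that is expressed from the paternal copy, chr2:152686801-152686950 was at 3.66, 3.65, 3.34, 3.34 and 3.75 log2 RPKM in the B6D2F1 mice and at 2.06, 2.28, 2.90 and 2.47 in the D2B6F1 mice. The crosses did not overlap, and the difference was 1.12 ± 0.23 (SE, limma adjusted p = 0.326). The bin is also a two-state bin: BXD102, BXD73 and BXD73b were at 3.58 to 3.87 and the other 7 strains at 1.83 to 2.12. B6D2F1 mice stood at positions of 0.879, 0.863, 0.611, 0.613 and 0.960, of which 2 are intermediate. D2B6F1 mice stood at -0.004, 0.067, 0.336 and 0.138, of which 1 is intermediate. In an intron of *Plagl1*, a zinc finger gene that restrains growth and is likewise expressed from the paternal copy, chr10:13090501-13090650 was at 3.65 to 3.899 in B6D2F1 and 2.18 to 3.47 in D2B6F1 (difference 1.014 ± 0.22, SE, limma adjusted p = 0.510). The CpG-richest bin of *Plagl1* (chr10:13090951-13091100) was at 3.80 ± 0.17 and 3.74 ± 0.21 (SD). Among these CpG-richest bins, the difference between crosses was under 0.5 log2 RPKM in size for 37 of 39 genes, which share 34 distinct bins, so that some bins count for more than 1 gene. The other two were *Peg13* (0.79 ± 0.23, SE, limma adjusted p = 0.929) and *Mkrn3* (0.51 ± 0.17, SE, limma adjusted p = 0.929). The median over the 39 genes was -0.04.

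**Figure D5:**
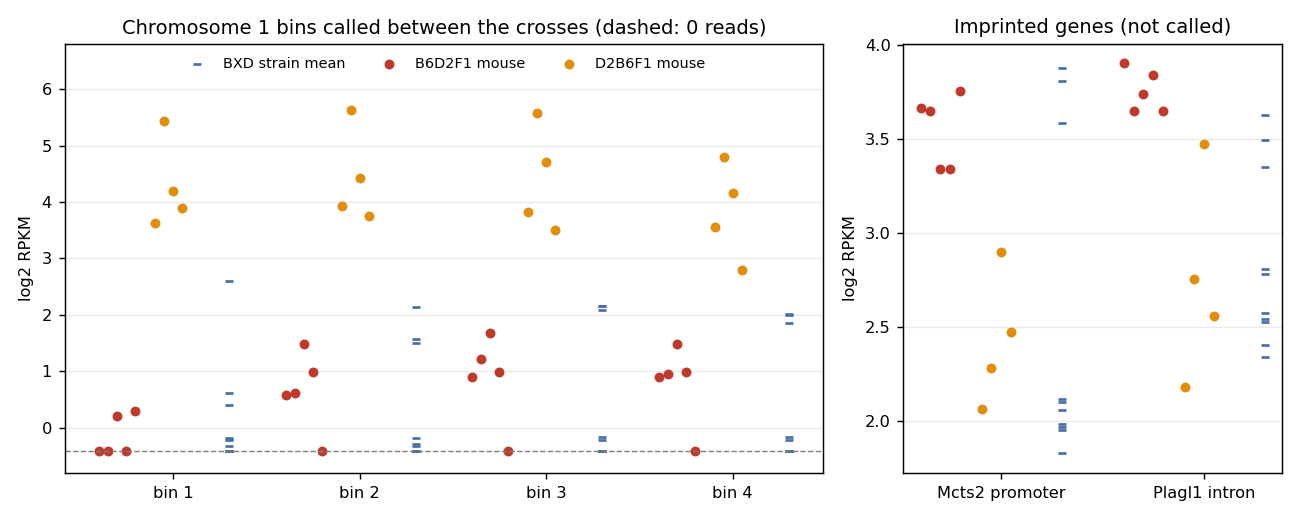
Log2 RPKM of the B6D2F1 mice (red), the D2B6F1 mice (orange) and the 10 BXD strain means (blue dashes) in the 4 chromosome 1 bins called between the crosses (left, dashed line at 0 reads) and in the *Mcts2* promoter and *Plagl1* intron bins, which were not called (right). In the first bin 3 of 5 B6D2F1 mice had 0 reads and the D2B6F1 mice 34 to 114.

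Elsewhere, the bin near *Ccr1* (chr9:123925351-123925500, 1 variant) was lower in B6D2F1, at 7.18 ± 0.087 against 7.73 ± 0.33 (SD), a difference of -0.56 ± 0.10 (SE, limma adjusted p = 0.118). This is next to the two-state bin above, and here the F1 positions ran from 0.535 to 1.09. Exons of *Pkp3* (chr7:141088501-141088650) and *Tmem259* (chr10:79977601-79977750) differed by -0.92 and -0.59, and an intron of *Trip11* (chr12:101846701-101846850) by 0.97 (limma adjusted p of 0.300 for each). An intron of *Cmss1* (chr16:57391051-57391200) differed by -0.59 (limma adjusted p = 0.163). An exon of *Pcdha1* (chr18:36960601-36960750), a protocadherin gene, differed by 1.05 (limma adjusted p = 0.326), about as much as the *Mcts2* and *Plagl1* bins, and an intron of *Gm26870* (chr9:3011851-3012000) by 0.43 (limma adjusted p = 0.367). Shares of bins at an unadjusted p under 0.05 between the crosses were 6.39% for the imprinted list, 7.43% for cytochrome P450, 4.18% for the growth axis and 8.42% for *Zfp* genes, against 5.36% of all bins, and no list held a called bin.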

How the data were processed

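Liver DNA of 70 mice was assayed by MBD-seq, and the 9 F1 and 46 BXD mice on chow were compared. The authors checked reads with FastQC 0.11.8, aligned them with Bowtie2 2.3.4.3 to mm10 (GRCm38), removed duplicates and poorly mapped reads, counted reads in 150 bp bins with MEDIPS and dropped bins with few reads or no CpG. The deposited values are log2 RPKM computed by the authors in edgeR with normalization factors. The deposited number of variants per bin is a count, and the deposited number of CpGs is used as given.

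The members and gene lists were chosen with earlier results of these data known. The lowest value (-0.406458) stands for 0 reads with a prior count of 2, inferred here, and every other value was turned back into whole reads (all within 0.05). Mice of 1 strain are isogenic, so crosses and strains were compared by their means with exact two-sided permutation tests. Bins were fitted with limma 3.58.1 (trend, R 4.3.3) on the 12 means, and between crosses on 9 mice, with Benjamini-Hochberg adjustment over 354239 bins and a threshold of 0.05. These p-values measure the spread between strains or mice. The fits and the two-state rule were tested on simulated data. Gene models came from the GENCODE basic annotation of GRCm38, and sequence and soft-masking from the RefSeq copy of GRCm38.p6.

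Named bins are the 5 with the smallest p in each direction and variant class, the 5 in each direction between crosses, the 4 two-state bins of each class with the largest gap, and the 4 bins without reads in a whole strain with the highest F1 mean, with adjacent bins (within 300 bp) named once, and the bin with most CpGs of each imprinted gene. Bins outside this rule were chosen once their values were known. Alternative settings tried were a prior count of 0.5 or 5, median-centring, thinning, bins with reads in every mouse, no males, merged sub-strains, age at collection, a random block for strain, edgeR 4.0.16, other two-state limits, and leaving out each cross, strain and F1 mouse. Chromosome X was not used, and mitochondrial bins were used beside 1 result.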

Additional observations from a re-analysis of the deposited data

Results flagged for a closer look

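Of 108 groups of 4 to 10 values, 2 held a value far from the others, where chance gives about 5%. BXD65b had an intermediate share of 17.3% in two-state bins without variants, above the other 9 BXD strain means and far below both F1 crosses. D2B6F1 replicate 4 was at 4.87 log2 RPKM in the *Zfp981* intron bin (chr4:146507401-146507550), above the other 3 mice of its cross.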

How the results depend on the processing

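Of 626 alternative values for comparisons, 557 kept their direction and their side of the threshold or stayed within the spread, 62 moved further, 3 gained and 2 lost significance and 2 reversed. Of 229 for 30 named bins, 206 kept their call, 10 gained and 13 lost it. The causes were not tested. Median-centring raised the mean difference with variants to 0.0723. Bins with reads in every mouse lowered the differences without variants to -0.0283 in the SD and 0.0102 in the mean, left 8 bins with all F1 mice above and gave no value for 0-read bins, and the same limit over the F1 mice left 0 bins between the crosses, as it removes the 4 bins with 0 reads in some F1 mouse before the fit. Thinning left 7 bins above and 39 below without variants and 1 below with variants. Without males there were 14 bins below with variants, 20 higher bins in the F1 crosses, and 265 higher and 111 lower bins between the crosses. Merging sub-strains gave 67.8 points for intermediate bins with variants, 36 higher bins, and 0.88 and 0.73 in bins without reads in a whole strain. There a prior count of 0.5 gave 1.26 and 1.04, a prior count of 5 gave 0.42 and 0.32, thinning gave 0.43 and 0.30, and the strains at 2 log2 RPKM or more, a reference chosen after the data were seen, gave -0.84 and -0.78. With age at collection as covariate 5 higher bins were left, and strain as a random block gave 655 higher and 944 lower bins, 608 of all these among the 612. Leaving out 1 cross, strain or F1 mouse gave ranges of -1.89 to -1.58 for 0-read bins with variants, -0.039 to -0.015 for the SD between mice without variants, 0.67 to 0.82 and 0.54 to 0.69 in bins without reads in a whole strain, 13 to 422 bins above and 86 to 153 below without variants, 3 to 69 above and 7 to 29 below with variants, 1 to 49 higher and 206 to 822 lower bins in the F1 crosses, and 0 to 410 higher and 3 to 105 lower bins between the crosses. The difference in mean between the crosses ran from 0.00094 to 0.0168 without and from -0.0011 to 0.0390 with variants. With 1 cross left out, the other was assumed to vary like the strains. No paired analysis was possible because the replicate numbers only name mice within a strain. A bin held a median of 22 to 53 reads in a library, so single bins with few reads, such as those on chromosome 1, rest on counting error as well as on differences between mice.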
